A study of Mus musculus with 36 samples.

Results

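The Slc25 genes encode the mitochondrial carriers, the family of inner membrane proteins that exchange metabolites between the cytosol and the mitochondrial matrix. They were taken as the genes whose symbol is Slc25a followed by a number, which gave 47 genes of the 25239 in the fraction table, of the 25229 in the polysome table and of the 48440 in the Ago2 KO table. All 36 libraries were from mouse. P-bodies, cytoplasmic granules of untranslated mRNA and silencing proteins, were sorted by a lentiviral GFP-LSM14A fusion and compared with the matching cytoplasmic fraction, with 2 libraries of each per group. Per the study's methods this fraction was the resuspended pellet of lysate cleared of nuclei, taken before sorting, so it still held the P-bodies. The groups were naive v6.5 embryonic stem (ES) cells kept in 2i/LIF, primed cells derived from them with activin A and bFGF, embryonic fibroblasts (MEFs), MEFs at day 3 of doxycycline-induced reprogramming by an OKSM cassette at Col1a1 with M2-rtTA at Rosa26 and a Pou5f1-EGFP reporter, with either a control or an shRNA against Nudt21, and clonal Ago2 KO naive ES cells made with paired CRISPR guides. Polysome libraries came from naive cells of 1 clone in which Ddx6 carries an FKBP12 degron tag, treated with dTAG-13 (DDX6 degron) or not (control), with 3 polysome and 3 total RNA libraries per group. Per the study's methods the polysome samples were pools of the ribosome-containing gradient fractions. All groups for P-body sorting therefore carried GFP-LSM14A, and both polysome groups carried the tagged Ddx6 in GFP-LSM14A cells.

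Mitochondrial carriers are built from a repeated pair of membrane helices, and each repeat carries a short signature motif. They are made in the cytosol without a cleaved presequence in most cases, and are handed to the inner membrane by chaperones of the intermembrane space and the TIM22 complex. Slc25a4 and Slc25a5, the adenine nucleotide translocases, export ATP made by oxidative phosphorylation, and Slc25a3 supplies the phosphate for it. Other members carry tricarboxylic and dicarboxylic acids, amino acids, acylcarnitines, cofactors, nucleotides, iron or glutathione. Whether such housekeeping mRNAs are held in P-bodies, and in which cell type, was asked here of each member.

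Depth ranged from 6769727 to 31185799 reads per library in the fraction table, with the lowest totals in primed cytoplasm, from 13308776 to 29362187 in the polysome table and from 15624342 to 17486206 in the Ago2 KO table. The members took 0.217% to 0.45% of all reads in the fraction libraries. Labelled cell types matched their markers: the 6 pluripotency markers summed to 2360 to 2720 CPM (counts relative to TMM-scaled library sizes) in naive libraries and to at most 1.25 CPM in MEF libraries, whereas the 6 fibroblast markers reached at least 12400 CPM in MEFs. Nudt21 was at most 5.94 CPM in the 4 knockdown libraries and at least 88.9 CPM in the 4 day 3 control libraries. Ago2 mRNA was 2.54 to 4.83 CPM in the Ago2 KO libraries, and Ddx6 mRNA was 104 to 211 CPM in the DDX6 degron libraries, where the degron acts on the protein. Some replicate pairs stood apart: the Ago2 KO cytoplasm libraries differed most from each other, the naive cytoplasm libraries held Tdgf1 at 807 and 229 CPM, the day 3 control P-body libraries diverged, and the MEF P-body libraries held 4 of 4 lung epithelium markers at a summed 6.57 and 96 CPM against 0 in both MEF cytoplasm libraries. Skeletal muscle markers summed to 113 to 145 CPM in MEF libraries of both fractions and to 22.5 to 33.2 CPM in primed ones. Values are also given without the naive cytoplasm, day 3 control P-body, Ago2 KO cytoplasm and MEF P-body libraries concerned. The polysome replicates were grown on separate plates per the study's methods, and the study describes its sequenced libraries as biological replicates.

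Members at both ends of naive P-body enrichment are shown by their first carrier signature, a stretch that did not itself separate enriched from depleted mRNAs. The 30 bases start at the codon for the signature proline in the transcript with the longest coding sequence (GENCODE M21, GRCm38), and capitals mark a G or C at the third base of a codon. Slc25a40, Slc25a36 and Slc25a32 were the most enriched members with a mean of at least 5 CPM in naive P-bodies, and Slc25a42, Slc25a10 and Slc25a39 the most depleted.
Slc25a40: ccCctGgatgttgttaaaattcgactCcaG
Slc25a36: ccactGgaagttgtCaaaacacgGctGcaG
Slc25a32: ccGctCgaCctCgtGaaGatCcgCttCgct
Slc25a42: ccCctGgaCcgGacCaaGatCatCttCcaa
Slc25a10: ccGctGgaCctGctCaaGgtGcatctacaG
Slc25a39: ccCctGgatgtGgtGaaGgtCcgCcttcaG
G or C filled 4 of the 10 such positions in Slc25a40 and 5 in Slc25a36, against 9 in Slc25a42, 8 in Slc25a10 and 8 in Slc25a39. The enriched Slc25a32 had 9, as many as Slc25a42, and Slc25a3 and Slc25a34, which also fell in naive P-bodies, had 4 and 5. Over the whole transcript the 3 enriched mRNAs had 39.7%, 40.7% and 41.2% G+C and the 3 depleted ones 56.2%, 60.6% and 59.7%. The genes lie at chr5:8422850-8454797, chr9:97074961-97111157, chr15:39091231-39112716, chr8:70184340-70212305, chr11:120491840-120499187 and chr11:102402985-102407946 in the same order.

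Slc25a5 was the most abundant member per kilobase of transcript in the cytoplasm of all 3 cell types, at 794 CPM per kb (naive), 474 (primed) and 278 (MEF). In naive cells Slc25a39 (624) and Slc25a3 (335 CPM per kb) followed, and next came Slc25a4 at 192 CPM per kb, close to Slc25a1, the citrate carrier, at 183. MEF cytoplasm had Slc25a3 at 247 and Slc25a4 at 231 CPM per kb close behind Slc25a5. At the low end, Slc25a54 had at most 0.202 CPM in any fraction library and no read in the polysome and Ago2 KO tables. Slc25a2, Slc25a18, Slc25a21, Slc25a34, Slc25a41 and Slc25a48 also fell below 10 summed reads in at least 1 comparison and were not tested there, so that 42 to 45 members were tested in each comparison of fractions. Reads of Slc25a4, Slc25a5 and Slc25a31 may be shared with each other and with processed pseudogenes, which leaves their absolute levels uncertain, and Slc25a29 and Slc25a47 are neighbours on opposite strands.

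In naive cells the abundant Slc25a5 and Slc25a3 were lower in P-bodies than in cytoplasm. Of the 9 cofactor and nucleotide carriers 3 were higher, Slc25a32, Slc25a36 and Slc25a16, and Slc25a42 was lower. Of all tested genes 22.6% rose and 15.4% fell. Slc25a5 had 693 and 715 CPM in naive P-bodies against 978 and 991 CPM in cytoplasm, and Slc25a3 had 329 and 332 against 436 and 463 CPM. For both genes the 2 P-body libraries lay below the 2 cytoplasm libraries, with log2 fold changes of -0.48 ± 0.09 (SE, adjusted p = 0.0114) and -0.44 ± 0.10 (adjusted p = 0.0181). Slc25a4 had 319.8 and 321 CPM in P-bodies and 449.8 and 290.2 CPM in cytoplasm. Its cytoplasm libraries lay on either side of the P-body libraries, and its difference of -0.21 ± 0.21 did not pass the test (adjusted p = 0.477).

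Among members with a mean of at least 5 CPM the deepest losses were in carriers of glutathione, dicarboxylates and coenzyme A. Slc25a39, which imports glutathione into mitochondria, had 513 and 501 CPM in naive P-bodies and 1129 and 975 CPM in cytoplasm, a log2 fold change of -1.05 ± 0.11 (adjusted p = 0.00173). Slc25a10, the dicarboxylate carrier, had 23.9 and 24.1 against 50.2 and 52.8 CPM (-1.10 ± 0.12, adjusted p = 0.00192). Slc25a42, a coenzyme A carrier, had 5.30 and 4.77 against 12.9 and 9.83 CPM (-1.18 ± 0.25, adjusted p = 0.0179). In each of the 3 genes the cytoplasm libraries were all higher than the P-body libraries. The 3 tested carriers of tricarboxylic, dicarboxylic and 2-oxo acids all fell, with Slc25a11, the oxoglutarate carrier, at -0.46 ± 0.10 and Slc25a1 at -0.37 ± 0.11. Slc25a20, the carnitine-acylcarnitine carrier, and Slc25a22, a glutamate carrier, fell by 0.93 and 0.68 on the log2 scale. The low-level Slc25a35 (3.28 and 2.07 against 5.96 and 6.22 CPM) and Slc25a34 (3 and 8 against 26 and 25 reads) completed the 11 depleted members.

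Slc25a32, a carrier of folate and FAD, had 25.1 and 23.7 CPM in naive P-bodies and 9.89 and 9.45 CPM in cytoplasm, the largest rise among members with a mean of at least 5 CPM (1.33 ± 0.16, adjusted p = 0.0026). Slc25a40, a close relative of Slc25a39, went the other way from it, with 43.2 and 39.2 against 14.8 and 25.1 CPM (1.05 ± 0.26, adjusted p = 0.0299). Slc25a36, a pyrimidine nucleotide carrier, had 109.7 and 117 against 54.5 and 58.7 CPM (0.9999 ± 0.11, adjusted p = 0.00183). All 3, picked by their calls, had non-overlapping groups. Slc25a16 (0.58 ± 0.14), Slc25a46 (0.48 ± 0.14), which acts at the outer membrane in mitochondrial shape, and the low-count Slc25a53 (1.66 ± 0.36) and Slc25a27 (2.88 ± 0.71) also rose. Slc25a27, an uncoupling-protein-like carrier, rested on 12 and 19 reads in P-bodies and 1 and 4 reads in cytoplasm.

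In all, 7 of 44 tested members rose and 11 fell in naive P-bodies (edgeR quasi-likelihood test), against 22.6% of all tested genes that rose and 15.4% that fell, or 38% called. As shares, 15.9% of members rose and 25% fell. The median member was at -0.05 and the median gene at -0.06 on the log2 scale. With the spread shared over all 20 fraction libraries, 10 rose and 10 fell. Without the first naive cytoplasm library Slc25a4 turned to 0.14, and without the second it was at -0.47. All 18 called members kept their directions in both of these fits, with Slc25a20 at -1.28 and -0.46. Each fit holds 1 cytoplasm library, so its spread came from the P-body pair alone and kept calls are no test of stability. When either P-body library was left out 3 members were called. Of the 9 genes followed through all 10 alternatives Slc25a10 and Slc25a36 kept their calls in each.

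**Figure D1:**
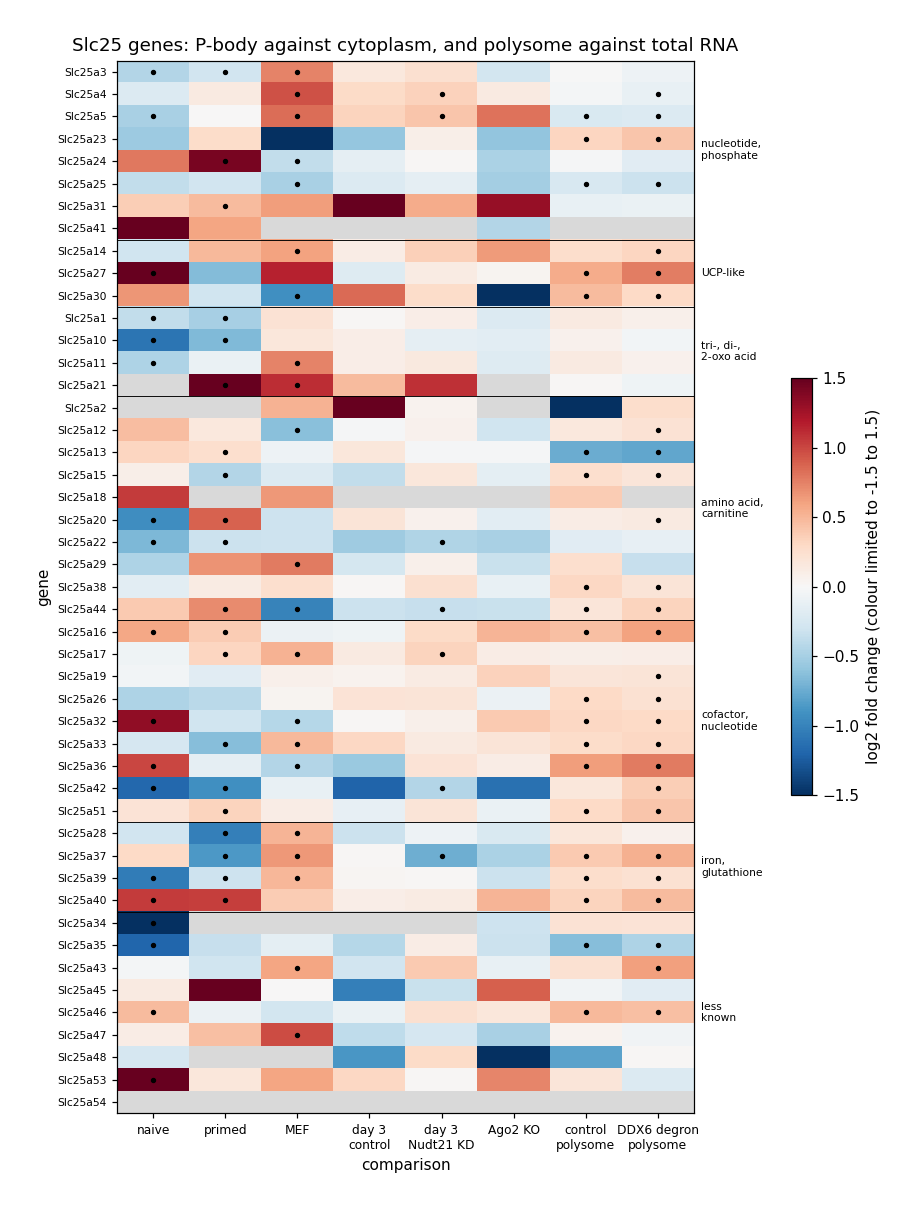
Log2 fold change of each Slc25 gene (rows, grouped by what the carrier moves) in 8 comparisons (columns): P-body against cytoplasm in 6 groups and polysome against total RNA in 2. Red is higher in P-bodies or polysomes and blue lower, dots mark an adjusted p under 0.05 and grey was not tested. Slc25a3, Slc25a4 and Slc25a5 at the top are blue or pale in naive and primed cells and red in MEFs, and most cofactor carriers are red in both polysome columns.

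Primed cells shared part of this pattern. Slc25a3 was again lower in P-bodies, with 241 and 227 against 281 and 284 CPM (-0.29 ± 0.06, adjusted p = 7.49e-04). Slc25a5 had 621 and 576 CPM in P-bodies and 594 and 581 CPM in cytoplasm, and Slc25a4 243 and 255 against 226 and 221 CPM. Their differences of 0.01 ± 0.05 and 0.13 ± 0.06 did not pass the test (adjusted p = 0.924 and 0.0586), and the sign of the first turned in 3 of 10 alternatives. Both mitoferrins, which import iron, fell: Slc25a28 had 15.7 and 17.02 against 32.1 and 33.7 CPM (-1.03 ± 0.11, adjusted p = 8.59e-06), and Slc25a37 had 4.08 and 3.70 against 7.16 and 6.76 CPM (-0.86 ± 0.21, adjusted p = 0.00496). The call for Slc25a37 was lost with DESeq2 (adjusted p = 0.0519) and that for Slc25a3 with all libraries in 1 fit (adjusted p = 0.0546). Slc25a42 (-0.92 ± 0.20) and Slc25a10 (-0.67 ± 0.13) fell as they did in naive cells.

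The top of the primed list was different from the naive one. Slc25a24, an ATP-Mg/phosphate carrier regulated by calcium, had 21.6 and 21.6 CPM in P-bodies and 7.90 and 7.92 CPM in cytoplasm (1.43 ± 0.14, adjusted p = 3.37e-06). Slc25a20 had 22.4 and 24.7 against 11.2 and 13.8 CPM (0.88 ± 0.14, adjusted p = 1.99e-04), the opposite of its direction in naive cells. Slc25a40 rose as in naive cells, with 41.3 and 32.4 against 17.8 and 17.6 CPM (1.04 ± 0.14, adjusted p = 3.78e-05). Slc25a21, a carrier of 2-oxo acids, had 10 and 12 reads in P-bodies and none in cytoplasm, which makes it at least 4.73-fold higher when cytoplasm is set to 3 reads over both libraries. In total 10 of 42 members rose and 10 fell, against 26.5% and 24.2% of all genes (50.7% called), and DESeq2 called 5 and 8. Of 41 members tested in both ES cell states, 2 rose in both (Slc25a40 and Slc25a16), 6 fell in both and 1, Slc25a20, fell in naive and rose in primed P-bodies. Of 15020 genes tested in both, 15.9% rose in both, 8.22% fell in both and 1.25% fell in naive and rose in primed P-bodies.

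The contrast between the states, a test of the difference in P-body enrichment over cytoplasm, called 10 of 46 members. Of these, 3 were more and 7 less enriched in naive than in primed cells, against 13.9% and 11.4% of all genes. Slc25a32 (1.496 ± 0.18, adjusted p = 8.38e-04) and Slc25a36 (0.999 ± 0.13, adjusted p = 0.00121) were more enriched in naive cells. Slc25a20 (-1.95 ± 0.34, adjusted p = 0.00386), Slc25a39 (-0.88 ± 0.13, adjusted p = 0.0015) and Slc25a5 (-0.63 ± 0.10, adjusted p = 0.00287) were less enriched. Slc25a3 (-0.29 ± 0.11) and Slc25a4 (-0.48 ± 0.23) were not called. The split depended on the setting: it was 6 and 6 with DESeq2 size factors in edgeR, 3 and 3 with DESeq2, 7 and 5 with filterByExpr and 6 and 4 without a filter. Without any 1 of the 4 primed libraries 6 members were called, and without the first or second naive cytoplasm library 18 or 22. Slc25a3 was then called at -0.34 (adjusted p = 0.00187) or -0.24 (adjusted p = 0.0195), and Slc25a4 at -0.76 without the second (adjusted p = 3.86e-07). Slc25a36 lost its call with all libraries in 1 fit (adjusted p = 0.0565), and the other 4 kept theirs in all 14 alternatives.

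In MEFs the abundant carriers were on the other side. Slc25a4 had 898 and 778 CPM in P-bodies and 432 and 458 CPM in cytoplasm, Slc25a5 had 605 and 586 against 349.9 and 338 CPM, and Slc25a3 had 536 and 539.9 against 331 and 332 CPM. Every P-body library lay above every cytoplasm library for the 3 genes. Their log2 fold changes were 0.95 ± 0.09 (adjusted p = 2.30e-05), 0.83 ± 0.08 (adjusted p = 2.49e-05) and 0.74 ± 0.08 (adjusted p = 5.26e-05), and all 3 kept their calls in all 10 alternatives. Without the second MEF P-body library, the one with the higher lung marker level, they were 1.04, 0.84 and 0.72.

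**Figure D2:**
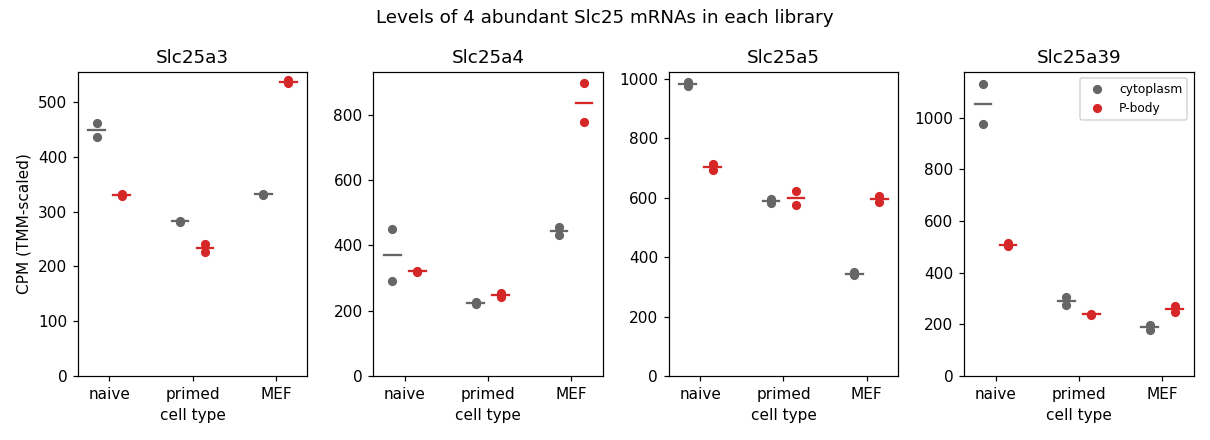
TMM-scaled CPM (y axes, each from 0) of Slc25a3, Slc25a4, Slc25a5 and Slc25a39 in every cytoplasm (grey) and P-body (red) library of naive cells, primed cells and MEFs. Points are libraries and bars the mean of 2. P-body libraries lie below cytoplasm in naive cells for Slc25a3, Slc25a5 and Slc25a39 and above it in MEFs for all 4.

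Slc25a11 (0.74 ± 0.10), Slc25a39 (0.50 ± 0.10), Slc25a28 (0.51 ± 0.15), Slc25a37 (0.65 ± 0.14) and Slc25a17 (0.52 ± 0.11), a peroxisomal member, also rose in MEF P-bodies. Slc25a29, a carrier of basic amino acids, had 8.26 and 8.96 against 5.48 and 4.85 CPM (0.78 ± 0.19, adjusted p = 0.00737), and lost its call when either cytoplasm library was left out (adjusted p = 0.059 and 0.0929) and with all libraries in 1 fit (0.104). On the lower side, Slc25a44, a carrier of branched-chain amino acids, had 29.6 and 20.4 CPM in P-bodies and 52.2 and 50.6 CPM in cytoplasm (-1.001 ± 0.15, adjusted p = 4.84e-04). Slc25a30, another uncoupling-protein-like carrier, had 4.91 and 4.27 against 9.23 and 8.67 CPM (-0.92 ± 0.19, adjusted p = 0.00299), and Slc25a12, an aspartate/glutamate carrier, had 27.5 and 28.5 against 45.2 and 43.7 CPM (-0.62 ± 0.11, adjusted p = 9.33e-04). Groups did not overlap for the 3 genes, and Slc25a30 lost its call without the first MEF cytoplasm library (adjusted p = 0.0633). Slc25a36 (-0.44 ± 0.10) and Slc25a32 (-0.43 ± 0.12), enriched in naive P-bodies, fell in MEFs.

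In total 14 of 43 members rose and 7 fell in MEF P-bodies, or 32.6% and 16.3%, against 26.6% and 28.7% of all genes (55.3% called). The median member was at 0.21 and the median gene at 0.03. The count was 9 and 7 with all libraries in 1 fit, and 7 members were called when either cytoplasm library was left out. Without the second P-body library the 21 called members kept their directions, and the low-level Slc25a21 (0.78) and Slc25a47 (0.68) lost their calls. Of 41 members tested in both naive cells and MEFs, 4 fell in naive and rose in MEF P-bodies (Slc25a3, Slc25a5, Slc25a11 and Slc25a39), 2 did the reverse (Slc25a32 and Slc25a36), and none rose in both or fell in both. Over the 13982 genes tested in both, 4.41% fell in naive and rose in MEF P-bodies, 8.54% did the reverse, 6.46% rose in both and 5.98% fell in both.

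The direct contrast of naive with MEF enrichment called 20 of 46 members, 6 more and 14 less enriched in naive cells, against 21.5% and 19.8% of all genes. The most negative called contrast was that of Slc25a39 (-1.74 ± 0.15, adjusted p = 2.57e-05), followed by Slc25a5 (-1.51 ± 0.12, adjusted p = 1.89e-05). Slc25a3 (-1.37 ± 0.13, adjusted p = 3.53e-05) and Slc25a4 (-1.35 ± 0.24, adjusted p = 0.00139) were lower as well, and the 4 genes kept their calls in all 14 alternatives. Slc25a32 (1.57 ± 0.20, adjusted p = 1.97e-04) and Slc25a30 (1.39 ± 0.40, adjusted p = 0.0202) were more enriched in naive cells. The latter was not called without the first naive P-body library. With all libraries in 1 fit the split was 9 and 11, and without a filter 8 and 10. In the fit that gave 6 and 14, the median member was at -0.58 and the median gene at -0.17 on the log2 scale. With all libraries in 1 fit the median gene was at 0, so the split and sizes of this contrast depended on the setting.

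**Figure D3:**
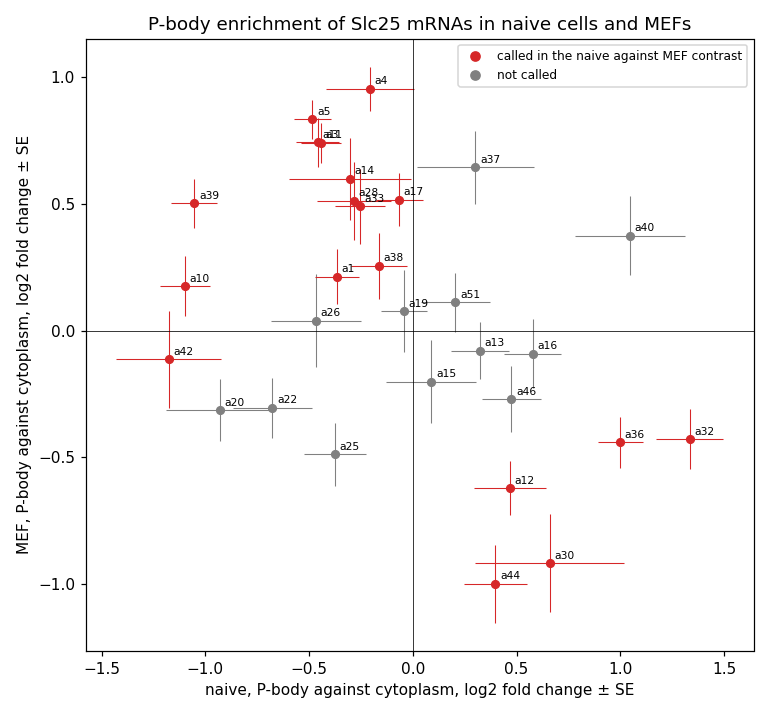
P-body enrichment in naive cells (x axis) against MEFs (y axis) as log2 fold changes ± SE for the 30 Slc25 mRNAs with a mean of at least 5 CPM in both, labelled by the end of the symbol. Red points, 18 of 30, were called in the contrast of both enrichments. Slc25a3, Slc25a4, Slc25a5, Slc25a11 and Slc25a39 sit at the upper left and Slc25a32, Slc25a36, Slc25a30 and Slc25a44 at the lower right.

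Cytoplasmic levels of the members differed between cell types as well, and a lower level from fewer expressing cells and one from less RNA per cell cannot be told apart in these bulk libraries. Slc25a24 had 2.43 and 1.84 CPM in naive, 7.90 and 7.92 in primed and 173 and 167 in MEF cytoplasm, a naive to MEF log2 fold change of -6.31 ± 0.17 (adjusted p = 2.46e-05). Slc25a23, another calcium-regulated carrier of this kind, ran the opposite way, with 13.9 and 11.2 CPM in naive and 1.05 and 0.840 CPM in MEF cytoplasm (3.72 ± 0.29, adjusted p = 2.36e-04). Slc25a20 was at 126 and 218 CPM in naive and 11.2 and 13.8 CPM in primed cytoplasm (3.76 ± 0.31, adjusted p = 6.34e-04). Slc25a39 was higher in naive than in primed cytoplasm (1.84 ± 0.13, adjusted p = 3.96e-04) and than in MEFs (2.49 ± 0.13, adjusted p = 8.14e-05). Slc25a5 was higher in naive cytoplasm than in primed (0.73 ± 0.10) and MEF cytoplasm (1.52 ± 0.10), and Slc25a3 by 0.66 and 0.44. For Slc25a4 the naive level was 0.71 ± 0.21 above primed and not called against MEFs (-0.27 ± 0.22, adjusted p = 0.311).

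Slc25a32 was lower in naive than in primed (-1.14 ± 0.19) and MEF cytoplasm (-1.88 ± 0.16, adjusted p = 3.33e-04). With primed cells 17 of 43 members were higher and 7 lower in naive cytoplasm, against 22.1% and 21.6% of all genes, but when either primed library was left out 6 members were called. Slc25a3, Slc25a4, Slc25a5, Slc25a24 and Slc25a32 then lost their calls, whereas Slc25a20 and Slc25a39 kept them. With MEFs 16 of 44 were higher and 14 lower, against 36% and 35.9% of all genes (71.8% called). Slc25a3 lost its call against MEFs when either MEF cytoplasm library was left out, and without the first naive library Slc25a4 was at -0.57 and called. Slc25a34 had 26 and 25 reads in naive cytoplasm and none in MEF cytoplasm, which makes it at least 34.9-fold higher in naive cells against 3 reads over both MEF libraries.

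Transcript composition and length varied with the members' enrichment, in different ways by cell type. In naive cells the 7 enriched members had a transcript G+C between 39.7% and 49.8% and the 11 depleted ones between 48.6% and 60.6%, and the medians were 41.2% and 56.2%. Among all called genes the medians were 44.5% and 55.8%. Across the 44 tested members Spearman's rho between naive enrichment and G+C was -0.629, and across 15273 genes -0.609. These are correlations over genes of the same libraries and are given as a description. In primed cells rho was -0.35 over 42 members and -0.373 over 15792 genes. In MEFs the signs were opposite, with 0.116 over 43 members and -0.0687 over 15784 genes.

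MEF enrichment instead went with length. The 14 members that rose had a median transcript length of 1634 bases and the 7 that fell 3588 bases, with the shortest of those that fell at 3294 bases. Only Slc25a37, at 4174 bases, exceeded that among the 14. Spearman's rho with transcript length was -0.656 over 43 members and -0.481 over 15784 genes, and rho with the length of the 3' UTR was -0.626 and -0.301. In naive cells rho with length was 0.397 over the members and 0.196 over all genes. For length, members and all genes thus had the same sign in both cell types.

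**Figure D4:**
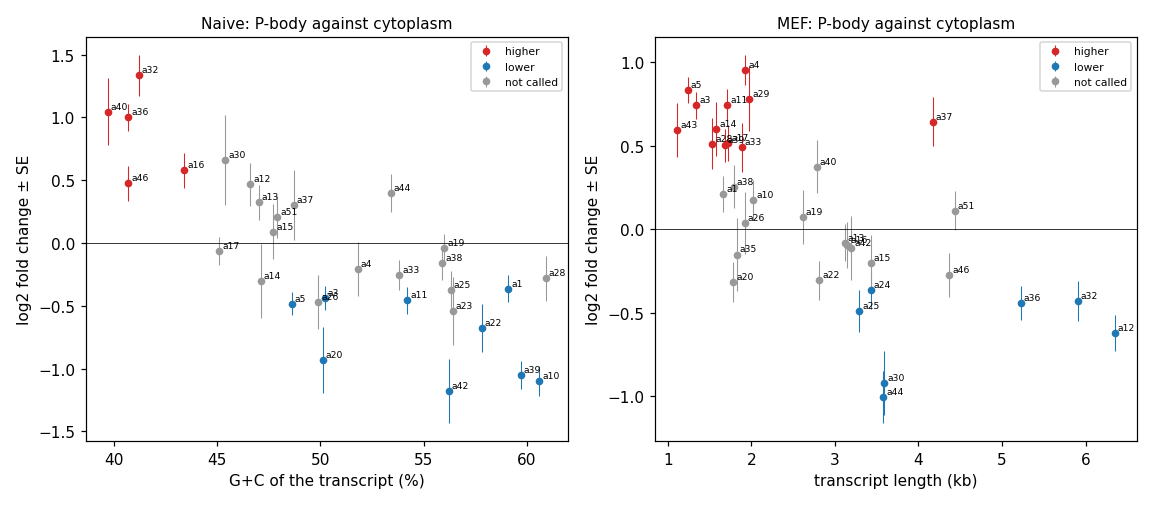
Left, naive P-body enrichment (log2 fold change ± SE) against transcript G+C in percent for the 31 Slc25 mRNAs with a mean of at least 5 CPM. Right, MEF P-body enrichment against transcript length in kilobases for 34 mRNAs at the same level. Red was called higher, blue lower and grey not called. In naive cells the called enriched mRNAs lie at 39.7% to 43.4% G+C, and in MEFs all called depleted mRNAs are longer than 3 kb.

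At day 3 of reprogramming no carrier passed the test in control cells, and 7 did with the Nudt21 shRNA. In the control cells Slc25a4 had 1318 and 1369.8 CPM in P-bodies and 1112 and 1170.0 CPM in cytoplasm, Slc25a5 679 and 658 against 539 and 558 CPM and Slc25a3 604 and 552 against 532 and 539 CPM. Their log2 fold changes were 0.28, 0.33 and 0.15, and no member was called by edgeR, where 0.646% of all genes were. At an unadjusted p under 0.05 there were 5 members, against 3899 of 15786 genes. DESeq2 called 1 member and 2083 genes. Without the first control P-body library Slc25a3, Slc25a4 and Slc25a5 were at 0.15, 0.37 and 0.37. Without the second they were at 0.16, 0.20 and 0.30. Slc25a36, chosen here after its values were seen, had 27.04 and 8.57 CPM in the first and second control P-body libraries.

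With the Nudt21 shRNA, which targets a factor of poly(A) site choice, Slc25a5 had 650.0 and 559 CPM in P-bodies and 475 and 424 CPM in cytoplasm (0.41 ± 0.10, adjusted p = 0.0146), and Slc25a4 759.8 and 859.7 against 635 and 627 CPM (0.34 ± 0.09, adjusted p = 0.0198). Slc25a17 also rose (0.33 ± 0.10), and Slc25a3 was at 0.24 ± 0.10 (adjusted p = 0.131). Slc25a37 (7.22 and 8.30 against 12.4 and 13.1 CPM, -0.73 ± 0.16), Slc25a22 (-0.46 ± 0.13), Slc25a42 (-0.44 ± 0.14) and Slc25a44 (-0.35 ± 0.10) fell. These 3 rises and 4 falls among 43 members compare with 9.04% and 12.8% of all genes. Without the second knockdown P-body library 12 members were called, and when either cytoplasm library was left out edgeR called 0. Slc25a37 had risen in MEF P-bodies and fell here. The contrast of knockdown with control enrichment called 0 of 46 members by edgeR and 0 by DESeq2, with 1 at an unadjusted p under 0.05. Of 16973 genes edgeR called 0.0118% and DESeq2 called 27, with 819 at an unadjusted p under 0.05. The knockdown minus control difference was 0.09 ± 0.14 for Slc25a4, 0.11 ± 0.15 for Slc25a5 and 0.11 ± 0.15 for Slc25a3. Without the first control P-body library 5 members were called in this contrast.

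In the Ago2 KO cells Slc25a5 had 1118 and 1028 CPM in P-bodies and 711 and 511 CPM in cytoplasm. Its log2 fold change was 0.81 ± 0.31 (adjusted p = 0.152). Slc25a4 (0.14 ± 0.29) and Slc25a3 (-0.28 ± 0.28) were not called either. None of the 43 tested members passed in edgeR, against 6.51% of all genes, with 5.47% higher. An unadjusted p under 0.05 was found for 3 members and 4031 of 16808 genes. DESeq2 called 1713 genes and 1 member, Slc25a5. Its call thus changed with the method, and with the replicate number as a block, where 3 members were called, it was at 0.83 (adjusted p = 0.0293). The cytoplasm libraries differed most of all replicate pairs, and without the first of them Slc25a5 was at 0.96. Over 9 alternatives it ranged from 0.56 to 0.96, and 6 of them left it uncalled. No comparison with the naive libraries was made, since the tables were counted separately. The naive ES cell value of Slc25a5, -0.48, and the Ago2 KO value stand side by side only. The 4 mitochondrially encoded mRNAs checked summed to 9250 and 9260 CPM in the Ago2 KO P-body libraries and to 5170 and 5350 CPM in cytoplasm. Their part in these values was not tested, and the check was made in the Ago2 KO libraries only.

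In control cells more carriers were higher in polysomes than lower, and Slc25a13 was the most depleted. Slc25a13, the aspartate/glutamate carrier citrin, had 105, 106 and 110.5 CPM in polysomes and 177, 188 and 173 CPM in total RNA, a log2 fold change of -0.75 ± 0.06 (adjusted p = 4.95e-08). All polysome libraries were below all total RNA libraries. Its paralog Slc25a12 was at 0.16 ± 0.07 (adjusted p = 0.0716). Slc25a5 had 483, 473 and 476 CPM in polysomes against 562, 566 and 548 CPM (-0.23 ± 0.06, adjusted p = 0.00368) and also fell, as did Slc25a25 (-0.24 ± 0.08, adjusted p = 0.0309) and the low-level Slc25a35 (-0.64 ± 0.16). The call for Slc25a25 was lost in 5 of 12 alternatives. Slc25a3 (-0.01 ± 0.06) and Slc25a4 (-0.03 ± 0.06) were not called and changed sign with the setting.

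On the higher side, Slc25a36 had 231, 235 and 229.9 CPM in polysomes and 167, 154 and 131 CPM in total RNA (0.62 ± 0.07, adjusted p = 3.86e-06). Slc25a27 had 6.82, 7.06 and 5.22 against 4.90, 4.43 and 3.72 CPM (0.55 ± 0.16, adjusted p = 0.00944), a call lost without the second polysome library (adjusted p = 0.0597), and Slc25a46 had 47.7, 49.4 and 45.3 against 36.5, 32.1 and 32.6 CPM (0.49 ± 0.07, adjusted p = 3.28e-05). The groups of the 3 genes did not overlap. In all 16 of 45 members rose and 4 fell, or 35.6% and 8.89%, against 18.8% and 24.1% of all genes, with a median of 0.18 for the members and 0.02 for all genes. Of the 9 cofactor and nucleotide carriers 6 rose, as did 3 of the 4 iron and glutathione carriers, and none of either group fell.

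In the DDX6 degron cells Slc25a13 and Slc25a36 again stood at the ends. Slc25a13 had 110.4, 99.1 and 105 CPM in polysomes and 189, 177 and 174 CPM in total RNA (-0.78 ± 0.05, adjusted p = 4.10e-12), and Slc25a36 had 212, 216 and 222 against 133, 120.1 and 124 CPM (0.78 ± 0.05, adjusted p = 1.16e-12). Slc25a27 (0.76 ± 0.15) and Slc25a16 (0.61 ± 0.07), a carrier linked to coenzyme A, followed at the top, and Slc25a25 (-0.32 ± 0.06), Slc25a5 (-0.20 ± 0.04) and Slc25a4 (-0.11 ± 0.04) fell, the last not in 5 of 12 alternatives. Slc25a3 was at -0.08 ± 0.04 and not called. Here 22 of 44 members rose and 5 fell, or 50% and 11.4%, against 24% and 26.8% of all genes (50.9% called), and 8 of the 9 cofactor and nucleotide carriers rose. In both cell groups 16 members rose and 4 fell. The share of all genes called alike in both groups was not counted. Spearman's rho between the control and degron values was 0.787 over 44 members and 0.743 over 15228 genes, given as a description. The repeated calls thus give no result particular to the members.

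**Figure D5:**
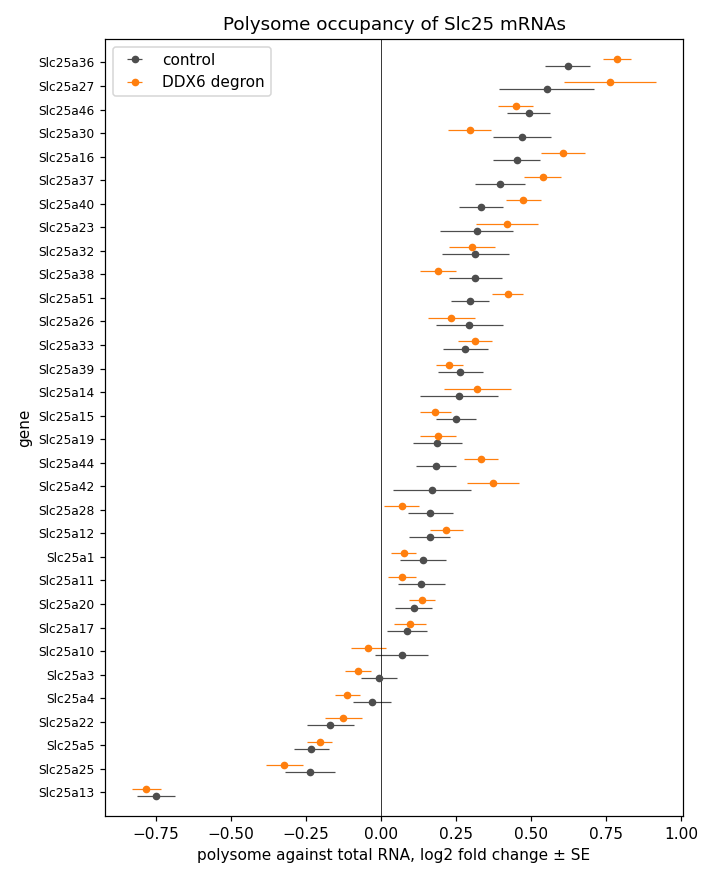
Polysome against total RNA (log2 fold change ± SE, x axis) of the 32 Slc25 mRNAs with a mean of at least 5 CPM, ordered by their value in control cells (dark) with the DDX6 degron value in orange. Slc25a13 lies lowest in both groups and Slc25a36 highest, and no pair of values differed by the test of the difference.

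The degron minus control difference in polysome association was called in 0 of 45 members by edgeR and 0 by DESeq2, and 0 had an unadjusted p under 0.05. Among all 16345 genes edgeR called 0%, with 844 at an unadjusted p under 0.05, and DESeq2 called 4. The differences were -0.03 ± 0.08 for Slc25a13, 0.16 ± 0.09 for Slc25a36, 0.03 ± 0.06 for Slc25a5, -0.07 ± 0.07 for Slc25a3 and -0.08 ± 0.07 for Slc25a4. In total RNA none of 44 members was called between degron and control cells, where 3.31% of genes were (1.24% higher). An unadjusted p under 0.05 was found for 8 members and 2981 of 15380 genes. DESeq2 called 3 members and 810 genes. Slc25a3 (-0.0034 ± 0.05), Slc25a4 (0.04 ± 0.05) and Slc25a5 (0.03 ± 0.05) were not called, and the sign of Slc25a3 turned in 4 of 12 alternatives. Without the third control total RNA library 9 members were called.

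Naive P-body enrichment and polysome association of the members are from separate experiments and share no library. Of the 7 members that rose in naive P-bodies 6 also rose in control polysomes (not Slc25a53), and of the 11 that fell, 2 fell in polysomes, Slc25a5 and Slc25a35, and 1 rose, Slc25a39. Of all genes that rose in naive P-bodies 23.5% rose in control polysomes, and of those that fell 33.6% fell and 19.4% rose. Spearman's rho over 43 members was 0.416 and over 14701 genes 0.0308, given as a description. With primed enrichment rho was -0.173 over 41 members and 0.168 over 14641 genes. For length the signs were opposite, a difference that was not tested: rho of control polysome association with transcript length was 0.36 over 45 members and -0.388 over 15068 genes, and the 16 members that rose had a median length of 3396 bases, against 1978 bases for all genes that rose.

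Genes that work beside the carriers were taken from fixed lists. Of 10 genes for import of carriers, 4 rose in naive P-bodies, Timm9 (1.28 ± 0.16), the receptor Tomm70a (0.86 ± 0.09), Agk (0.76 ± 0.14) and Timm29 (0.44 ± 0.12), and 1 fell, Timm10b (-0.67 ± 0.15). In MEF P-bodies 7 of the 10 rose, among them the small chaperones Timm8b (1.91 ± 0.20), Timm13 (1.56 ± 0.09) and Timm10b (1.34 ± 0.09), and Timm29 fell (-0.72 ± 0.10). In the naive against MEF contrast 2 were higher and 6 lower. Of all genes 22.6% rose and 15.4% fell in naive P-bodies, 26.6% and 28.7% in MEF P-bodies, and 21.5% and 19.8% were higher and lower in the contrast. Among the pyruvate carrier subunits and porins, 1 of 5 fell in naive P-bodies, Vdac1 (-1.37 ± 0.10), and none rose. In MEFs 4 of 5 rose, Mpc2 most (1.59 ± 0.11), and Vdac1 fell (-0.96 ± 0.13). All 5 were less enriched in naive cells in the contrast. Of the family members under other symbols 3 of 5 were tested in both, of which Mtch1 fell in naive P-bodies (-0.48 ± 0.10) and rose in MEFs (0.43 ± 0.10). In control polysomes 7 of 10 import genes rose and 1 fell, against 18.8% and 24.1% of all genes.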

How the data were processed

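P-body and cytoplasm libraries of 5 cell groups, Ago2 KO libraries and polysome and total RNA libraries were analysed from 3 tables of gene-level estimated counts as the authors deposited them. Per the study's methods, fraction reads were aligned with HISAT2 to mm10 and counted with featureCounts on refGene, and polysome reads were quantified with salmon. The Ago2 KO table was deposited under a name that marks it as merged salmon gene counts, and the methods give SMART-Seq libraries for P-body-seq unless stated otherwise. Of all values, 5.05% to 25.7% per library were not whole, so counts were rounded. No strand setting is stated.

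Each comparison was fitted with edgeR 4.0.16 (R 4.3.3; TMM scaling, quasi-likelihood test, two-sided, a minimum of 10 reads per gene over the fitted libraries), with Benjamini-Hochberg adjustment over all genes of the fit and a threshold of 0.05. Errors are SE of the log2 fold change. Where groups are said not to overlap, this describes the named genes, most of them picked by their calls. The share of all genes without overlap was not counted, so this is no further support for a call. Levels are CPM on TMM-scaled library sizes. Contrasts between enrichments are interaction terms; those that share libraries are not independent. DESeq2 1.42.0, other scaling and filters, a replicate block, 1 fit per table and 86 refits without 1 library were alternatives. The share of all genes called was counted for the main fits and DESeq2 only. Member counts from other alternatives thus show how calls depend on the fit, not a change particular to the members. On simulated counts with 200 genes changed by a log2 fold change of 1, the naive fit recovered 67.5% and the control polysome fit 97.5%.

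Slc25a3, Slc25a4 and Slc25a5 were named throughout, with the 3 called members at each end of every enrichment or polysome comparison and the 2 at each end of every contrast or level comparison, among members with a mean of at least 5 CPM. Other members are named as examples. Members and lists were chosen with earlier results of these data known. The authors' 10 tables of fold changes and p-values were not used. Transcript features came from GENCODE M21 (GRCm38), using the transcript with the longest coding sequence.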

Additional observations from a re-analysis of the deposited data

Results flagged for a closer look

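The P-body enrichment of 5 named members differed between naive and primed cells by the test of the difference in edgeR. The naive minus primed difference on the log2 scale was 1.496 for Slc25a32, 0.999 for Slc25a36, -0.88 for Slc25a39, -0.63 for Slc25a5 and -1.95 for Slc25a20. Of these, Slc25a20 fell in naive and rose in primed P-bodies.

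Between naive cells and MEFs 6 named members differed by the same test. The naive minus MEF difference was -1.35 for Slc25a4, -1.51 for Slc25a5, -1.37 for Slc25a3, -1.74 for Slc25a39, 1.57 for Slc25a32 and 1.39 for Slc25a30. Both contrasts use the same naive libraries, and the naive cytoplasm pair differed between its replicates. Slc25a3, Slc25a5 and Slc25a39 fell in naive and rose in MEF P-bodies, and Slc25a32 did the reverse.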

How the results depend on the processing

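Counts of called members moved by more than 1.5 times as follows. DESeq2 called 13 members in primed enrichment, 1 in day 3 control enrichment, 1 in Ago2 KO enrichment, 6 in naive against primed enrichment and 3 in DDX6 degron against control total RNA. Over all genes it called 6246, 2083, 1713, 3868 and 810 in the same order. With all libraries of a table in 1 fit the count was 12 in primed, 3 in day 3 control and 2 in day 3 Nudt21 knockdown enrichment and 3 in DDX6 degron against control total RNA. Without a filter it was 1 in day 3 control enrichment, 1 in Ago2 KO enrichment and 3 in DDX6 degron against control total RNA. Leaving out each library in turn gave 3 to 30 called members in naive, 16 to 21 in primed, 7 to 26 in MEF, 0 to 18 in day 3 control, 0 to 12 in day 3 Nudt21 knockdown and 0 to 9 in Ago2 KO enrichment, 15 to 21 in control and 24 to 25 in DDX6 degron polysome association, 6 to 22 in naive against primed and 14 to 23 in naive against MEF enrichment, 0 to 5 in the Nudt21 knockdown contrast, 0 in the DDX6 degron contrast, 6 to 29 in naive against primed cytoplasm, 20 to 33 in naive against MEF cytoplasm and 0 to 9 in DDX6 degron total RNA. The share of all genes called was not counted in the leave-one-out fits, so these counts give no result particular to the members. The cause of the shifts was not tested.

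Direction reversed for Slc25a5 in primed enrichment with filterByExpr (-0.0036), for Slc25a3 in control polysome association with DESeq2 (0.0020) and with its size factors in edgeR (0.0020), and for Slc25a3 in DDX6 degron total RNA with filterByExpr (0.00073) and with all libraries in 1 fit (0.0053). Leaving out 1 library also crossed 0 in these results. It gave -0.047 to 0.055 for Slc25a5 in primed enrichment, -0.027 to 0.026 for Slc25a3 and -0.062 to 0.0061 for Slc25a4 in control polysome association, and -0.033 to 0.029 for Slc25a3 in DDX6 degron total RNA. Slc25a4 ranged from -0.47 to 0.14 in naive enrichment, from -0.11 to 0.27 in Ago2 KO enrichment and from -0.57 to 0.040 in naive against MEF cytoplasm. In the Nudt21 knockdown contrast Slc25a3 ranged from -0.026 to 0.22 and Slc25a5 from -0.020 to 0.22, and in the DDX6 degron contrast Slc25a5 from -0.0037 to 0.041. Apart from leave-one-out, named genes kept direction and call in 513 results, lost the call in 11, gained it in 5 and reversed in 5. Under leave-one-out the numbers were 410, 48, 15 and 13.

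Where edgeR called any member, the share of rises among called members moved by over 10 points with all libraries in 1 fit in naive (10 rises and 10 falls), MEF (9 and 7), naive against primed (3 and 4) and naive against MEF enrichment (9 and 11), without a filter in naive against primed (6 and 4) and naive against MEF enrichment (8 and 10), with DESeq2 in primed (5 and 8) and naive against primed enrichment (3 and 3), and in the latter also with DESeq2 size factors (6 and 6) and filterByExpr (7 and 5). The median of all genes moved by 0.161 in MEF enrichment without a filter, by 0.118 in naive against primed enrichment with filterByExpr and by 0.174 in naive against MEF enrichment with all libraries in 1 fit. With the replicate number as a block the counts were 1 in day 3 control and 3 in Ago2 KO enrichment, and within 1.5 times of the unblocked count in the other 13 comparisons. Deviations of same-numbered P-body and cytoplasm libraries from their group means correlated over genes at -0.0471 to 0.602. For polysome and total RNA libraries these deviations correlated at -0.00547 to 0.191. They are not correlations of the expression levels themselves. Although total RNA was kept from each polysome lysate, the labels tie no number to a shared culture, so the numbers were not taken to pair the libraries. In naive against primed cytoplasm, where the correlation of deviations was -0.136, crossed numbers, an alternative chosen after seeing the data, gave 23 called members. Members with few reads are limited by depth.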
